A study of Mus musculus with 4 samples.

Results

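Growth factor genes of the intestinal niche were compared between inflamed colons of mice lacking Elf4 and of wild-type mice. They comprise the Wnt, BMP and TGF-beta, EGF receptor, FGF, PDGF, VEGF, IGF, HGF and Notch families, and their genes were found by a pattern of gene symbols. The pattern itself does not use the expression values. The genes, their roles and the gene lists were, however, chosen with earlier results of these data known. The table of the study lists 4121 genes that passed the authors' call between genotypes, and 62 of them belong to these families. The annotation holds 156 protein-coding genes with such symbols, so 39.7% were listed, against 17.5% of all annotated protein-coding genes, many of which may not be expressed in colon. The 17.5% also serves as background for each count of listed genes in a family or gene list below, and no such count was tested. The other family members are not analysed here.

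The mutant animals were Elf4-/- mice, labelled Elf4-KO, with 2 samples, and the controls were WT mice, also with 2 samples. Both were C57BL/6 mice aged 8 weeks, and both had been treated with 3% DSS (dextran sulfate sodium), which damages the lining of the colon and brings on colitis. Distal colon was taken at day 6, when it was inflamed, so no group without colitis enters the comparison. The labels name no promoter or Cre for the deletion, do not say which part of Elf4 was removed, and do not say whether the samples came from separate animals. The table gives 1 FPKM value per gene and genotype (fragments scaled to transcript length and to the mapped fragments of the library), so no spread between samples can be given and the depth is unknown. "Rose" and "fell" below rest on the authors' test. By the values, every listed gene has a q of at most 0.05 and a difference of at least 2-fold. The member genes nearest to that limit were Igf1 at 2.003-fold, Tgfbr2 at 2.01-fold and Dkk2 at 2.02-fold. Unless another q is given, the q of a gene was 0.000372 in the authors' deposited table, its smallest, which 43 of the 62 genes share.

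Crypts of the colon are renewed by stem cells that depend on signals from the epithelium and from the fibroblasts, vessels and nerves around it. Wnt ligands and R-spondins keep cells dividing at the crypt base, BMP ligands favour differentiation further up, and BMP antagonists made below the crypt hold that signal back. Notch receptors and ligands set the choice between absorptive and secretory fates. EGF receptor ligands, FGF7 and HGF drive epithelial growth and repair, while PDGF and VEGF act largely on connective tissue and vessels.

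Most listed growth factor genes were higher in Elf4-KO colon. Of the 62, 47 (75.8%) rose and 15 fell, beside 48.0% higher and 52.0% lower among all 4121 listed genes. The median log2 ratio, computed after adding 1 FPKM to each value, was 1.24 for these genes and -0.76 for all listed genes. By at least 4-fold, 11 of the 62 genes rose and 6 fell, where the whole table had 12.9% of its genes at least 4-fold higher and 24.5% at least 4-fold lower. All 62 genes had at least 1 FPKM in the higher genotype, and 57 had at least 5 FPKM. All listed genes passed the call (100%), so these shares compare directions among called genes, and how many genes the authors tested is not known here.

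**Figure D1:**
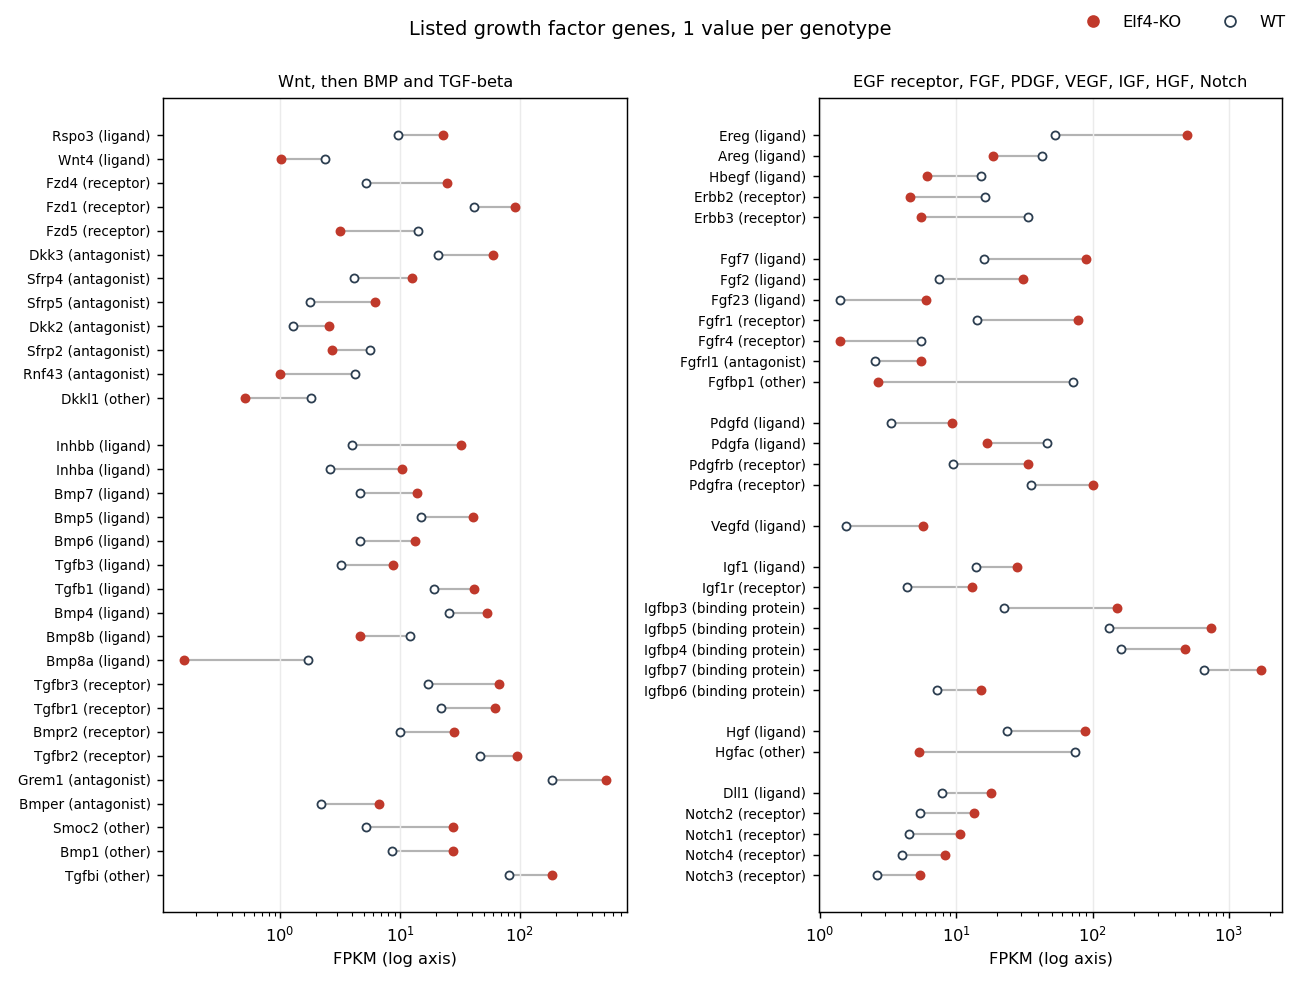
FPKM (log axis) of each of the 62 listed genes, filled points for Elf4-KO and open points for WT, joined by a line and ordered by pathway and role; each point is the authors' single value for a genotype. The filled point lies to the right for 47 genes and to the left for 15, and the longest line is that of Fgfbp1 (2.68 FPKM in Elf4-KO and 71.3 FPKM in WT).

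Each of the main roles held more genes that rose than fell. Of 24 listed ligand genes, 18 rose and 6 fell, the median log2 ratio being 1.24. Of 18 receptor genes, 14 rose and 4 fell (median 1.15). Of 14 genes for antagonists and binding proteins, 12 rose and 2 fell (median 1.39), and without the 5 IGF binding proteins 7 rose and 2 fell (median 1.27). The remaining 6 genes, which are none of these, divided into 3 that rose and 3 that fell (median 0.13). That median lies between Tgfbi at 1.16 and Dkkl1 at -0.90, near no gene. These role medians were not tested against each other, since the table has no values per sample, and the 2-fold limit of the table keeps smaller differences out of them. Among genes with at least 4-fold differences the medians were 1.91 for ligands, 0.0809 for receptors and 2.48 for antagonists and binding proteins. Behind them were 6 ligands that rose and 1 that fell, and 2 antagonists or binding proteins that rose and 1 that fell. The receptors were 2 that rose and 2 that fell, so their median lies between Fzd4 at 2.04 and Fzd5 at -1.88, near no receptor. By family, 5 of 12 Wnt pathway genes, 4 of 5 EGF receptor genes, 2 of 19 BMP and TGF-beta genes, 0 of 7 IGF genes and 0 of 5 Notch genes fell, beside 52.0% of all listed genes. These counts are small and the differences between families were not tested.

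**Figure D2:**
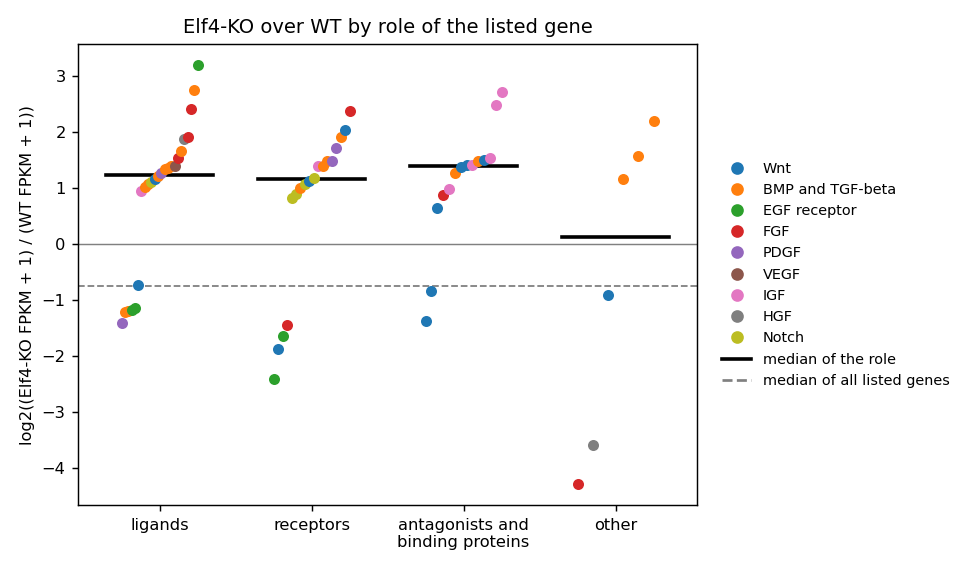
Log2 ratio of Elf4-KO over WT after adding 1 FPKM, for listed ligands, receptors, antagonists with binding proteins, and other genes; colours mark the pathway, the bar is the median of the role and the dashed line the median of all listed genes (-0.76). The first 3 role medians lie between 1.15 and 1.39, and each of these roles holds a minority of genes below 0.

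Listed cell type markers moved in both directions, with each list going a single way. Of 11 markers of colon epithelium, 11 were listed and 11 fell, by 4.11-fold to 19.4-fold with a median of 10.8-fold, and their summed level was 746 FPKM in Elf4-KO colon and 7515 FPKM in WT colon. The epithelial markers were detected in each genotype, but at low levels for some in Elf4-KO. By level in Elf4-KO they ran from the gut transcription factor gene Cdx2, with 3.08 FPKM in Elf4-KO and 30.5 FPKM in WT, to Car1, the colonocyte carbonic anhydrase gene, with 271 FPKM in Elf4-KO and 1115 FPKM in WT. Of 12 fibroblast and mesenchyme markers, 7 were listed and 7 rose (2.001-fold to 5.21-fold), with a summed level of 4784 FPKM in Elf4-KO and 1374 FPKM in WT. Of 9 endothelial markers, 8 were listed and 8 rose (2.18-fold to 4.88-fold; 372 FPKM in Elf4-KO and 118 FPKM in WT in sum). The 5 listed of 8 neuron and glia markers also rose (539.6 FPKM in Elf4-KO and 109 FPKM in WT). Of 8 smooth muscle and pericyte markers, the 2 listed, Rgs5 and Cspg4, rose, with 191 FPKM in Elf4-KO and 79.0 FPKM in WT in sum. The smooth muscle genes of that list, Acta2, Myh11, Des, Actg2, Cnn1 and Tagln, were not in the table. Of 12 neutrophil and monocyte markers, 8 were listed and 8 rose (4083 FPKM in Elf4-KO and 378 FPKM in WT), while the 6 listed of 9 T, NK and B cell markers fell (37.7 FPKM in Elf4-KO and 143 FPKM in WT). No listed marker was at 0. In bulk tissue, fewer cells of a type and less RNA per cell cannot be told apart, and the part that these cell types play in the results below was not tested.

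The folds of the growth factor genes can be set beside these ranges. Of the 15 genes that fell, 9 fell by less than any epithelial marker, 5 lay within the epithelial range and 1, Fgfbp1, fell by more. Beside the T, NK and B cell markers (2.78-fold to 4.51-fold), 6 of the 15 lay below the range, 4 within it and 5 above it. Since the table starts at 2-fold, as do the listed fibroblast markers, no gene that rose could lie below the fibroblast range. Of the 47 that rose, 7 lay above it, and these were Ereg, Inhbb, Igfbp3, Fgf7, Igfbp5, Fgfr1 and Smoc2. Against the endothelial markers, 9 of the 47 lay below the range, 31 within it and the same 7 above it. Against the neuron and glia markers, 6 lay below, 38 within and 3 above. Against Rgs5 (2.40-fold) and Cspg4 (2.71-fold), the only 2 listed markers of their list, 14 lay below, 3 within and 30 above. Against the neutrophil and monocyte markers, 14 lay below and 33 within, and none of the 47 exceeded the highest neutrophil and monocyte marker, Mmp8, at 54.0-fold.

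**Figure D3:**
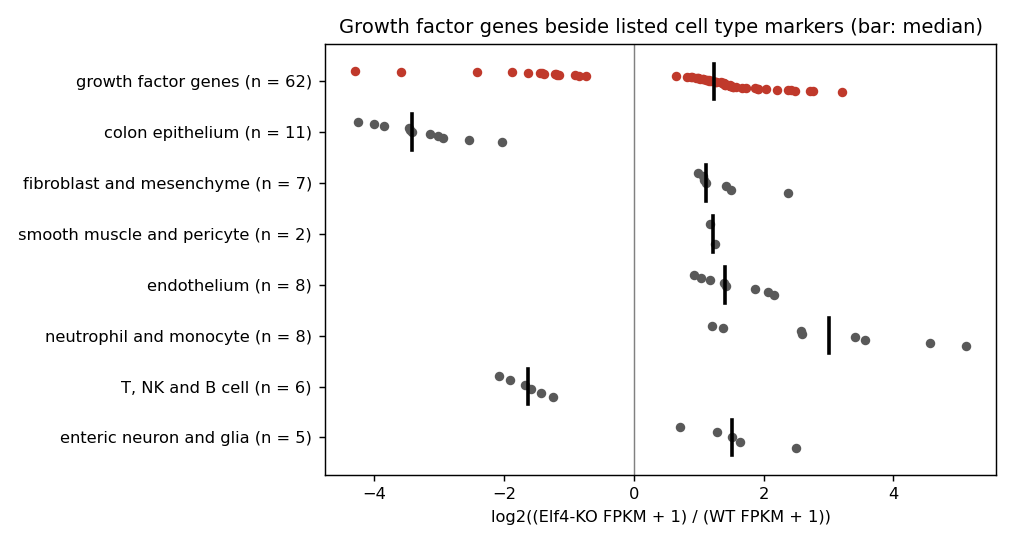
Log2 ratio of Elf4-KO over WT after adding 1 FPKM, 1 point per listed gene, for the growth factor genes and for each marker list; bars are medians. The gap around 0 in every row is made by the 2-fold limit of the table; the epithelial and lymphocyte markers lie on the lower side and the mesenchymal, endothelial, myeloid and neural markers on the higher side.

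Elf4 itself, an Ets family transcription factor gene, had 3.51 FPKM in Elf4-KO and 16.4 FPKM in WT, 21.4% of the WT level. Ets factors bind a core that starts with the letters GGA, and CCGGAA is a form of it. RefSeq promoter windows on GRCm38.p6 were available for 49 of the 62 genes. The letters CCGGAA, on either strand, were found in the 250 bases before the start in 6 of these 49 genes (12.2%), beside 13.6% of 27025 genes with a promoter window. The longer form CCGGAAGT, which contains CCGGAA, was in 1 of the 49 (2.04%), beside 3.23% of all genes. The 6 genes were Igfbp3, Bmp4 and Fgfrl1, which rose, and Bmp8a, Rnf43 and Fgfr4, which fell. The windows of Igfbp3, Bmp4 and Bmp8a lie wholly outside the annotated gene and are shown 5′ to 3′, with the match in capitals; TTCCGG is the match on the opposite strand. By direction, the letters were found in 3 of 13 genes that fell (23.1%) and 3 of 36 that rose (8.33%), a difference that was not tested. A match is a description of the sequence and not of binding. The coordinates are chr11:7213924-7214173 (minus strand) for Igfbp3, chr14:46390670-46390919 (minus strand) for Bmp4 and chr4:123343253-123343502 (minus strand) for Bmp8a.
Igfbp3: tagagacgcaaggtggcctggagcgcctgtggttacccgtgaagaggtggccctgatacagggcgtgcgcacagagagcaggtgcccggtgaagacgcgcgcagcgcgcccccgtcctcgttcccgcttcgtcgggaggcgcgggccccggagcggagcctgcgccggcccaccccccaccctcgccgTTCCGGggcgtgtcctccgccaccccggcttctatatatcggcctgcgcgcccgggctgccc
Bmp4: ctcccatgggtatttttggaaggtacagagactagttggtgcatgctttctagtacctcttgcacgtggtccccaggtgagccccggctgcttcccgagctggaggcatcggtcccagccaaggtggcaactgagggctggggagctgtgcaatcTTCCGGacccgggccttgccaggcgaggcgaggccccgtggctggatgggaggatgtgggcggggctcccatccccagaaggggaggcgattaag
Bmp8a: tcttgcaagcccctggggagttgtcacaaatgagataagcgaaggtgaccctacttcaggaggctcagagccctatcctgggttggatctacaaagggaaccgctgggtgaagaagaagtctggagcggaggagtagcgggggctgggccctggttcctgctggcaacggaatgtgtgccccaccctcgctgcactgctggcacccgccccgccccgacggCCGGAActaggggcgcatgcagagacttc

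Few Wnt ligands were listed, but receptors and inhibitors of the pathway were. Of 19 Wnt ligand genes in the annotation 1 was listed, Wnt4, with 1.01 FPKM in Elf4-KO and 2.35 FPKM in WT (q = 0.00912 in the authors' deposited table). Of 4 R-spondin genes, whose products enhance Wnt signals through Lgr receptors, 1 was listed. This was Rspo3, with 22.8 FPKM in Elf4-KO and 9.66 FPKM in WT. Wnt4 thus fell 2.32-fold and Rspo3 rose 2.36-fold, at levels that differ by over an order of magnitude in Elf4-KO colon.

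Of 10 Frizzled receptor genes, 3 were listed, and they diverged. Fzd4 (7:89404355-89413134, plus strand), which also serves as the norrin receptor of vessels, had 24.7 FPKM in Elf4-KO and 5.25 FPKM in WT, a 4.70-fold rise. Fzd1 had 91.8 FPKM in Elf4-KO and 41.4 FPKM in WT, and was the most abundant listed Frizzled in each genotype. Fzd5 (1:64730558-64740607, minus strand), a Frizzled of intestinal epithelium, had 3.14 FPKM in Elf4-KO and 14.2 FPKM in WT, a 4.52-fold fall. In WT colon Fzd5 exceeded Fzd4, and in Elf4-KO colon the order was the other way round.

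Among 6 listed Wnt antagonists found by the symbol pattern, 4 rose. Dkk3, a divergent Dickkopf gene, had 60.2 FPKM in Elf4-KO and 20.7 FPKM in WT. Sfrp4 and Sfrp5, which encode secreted decoys of Frizzled, rose 3.04-fold to 12.7 FPKM and 3.48-fold to 6.16 FPKM in Elf4-KO. Dkk2, an antagonist of the Lrp co-receptors, had 2.58 FPKM in Elf4-KO and 1.28 FPKM in WT (q = 0.0436 in the authors' deposited table). The other two fell. Sfrp2 had 2.71 FPKM in Elf4-KO and 5.67 FPKM in WT (q = 0.0318 in the authors' deposited table). The 3 listed genes with Sfrp symbols therefore did not share a direction. Rnf43 (11:87662722-87735539, plus strand), a ubiquitin ligase that removes Frizzled from the surface of crypt cells, had 0.990 FPKM in Elf4-KO and 4.18 FPKM in WT, a 4.22-fold fall. Dkkl1, a Dickkopf-like gene placed in no role here, had 0.505 FPKM in Elf4-KO and 1.81 FPKM in WT (q = 0.0359 in the authors' deposited table).

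Of 32 further Wnt pathway genes, 9 were listed, 6 higher and 3 lower. Frzb, a secreted Frizzled-related gene outside the symbol pattern, was named after its values were seen. It had 17.5 FPKM in Elf4-KO and 7.54 FPKM in WT (q = 0.00384 in the authors' deposited table). Lgr4, the R-spondin receptor gene, had 17.4 FPKM in Elf4-KO and 71.0 FPKM in WT. Tcf7l2, the nuclear effector of Wnt signals in gut epithelium, had 7.52 FPKM in Elf4-KO and 22.9 FPKM in WT, and the cyclin gene Ccnd1 had 4.18 FPKM in Elf4-KO and 62.3 FPKM in WT, a 14.9-fold fall. Cd44, an adhesion receptor gene of crypt and immune cells, rose 2.96-fold to 74.0 FPKM in Elf4-KO, the Dickkopf co-receptor gene Kremen1 rose 2.50-fold and the Wnt5a receptor gene Ror1 rose 2.92-fold. The target genes Axin2, Lgr5, Ascl2, Nkd1, Sp5, Notum and Myc were on this list and not in the table.

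Genes of the BMP and TGF-beta family mostly rose, with 17 of 19 higher. Of 10 BMP ligand genes 6 were listed, 4 higher and 2 lower. Bmp4 had 53.2 FPKM in Elf4-KO and 25.7 FPKM in WT (q = 0.000998 in the authors' deposited table), and Bmp5 had 40.4 FPKM in Elf4-KO and 15.1 FPKM in WT. Bmp6 had 13.4 FPKM in Elf4-KO and 4.64 FPKM in WT, and Bmp7 had 13.9 FPKM in Elf4-KO and 4.68 FPKM in WT. Bmp8b had 4.67 FPKM in Elf4-KO and 12.1 FPKM in WT (q = 0.0215 in the authors' deposited table). Bmp8a had 0.159 FPKM in Elf4-KO and 1.70 FPKM in WT (q = 0.0152 in the authors' deposited table). Bmp8a and Bmp8b are close copies, so the division of reads between them is uncertain.

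The activin and TGF-beta ligands all rose among those listed. Inhbb (1:119415465-119422248, minus strand), the activin B subunit gene, had 32.5 FPKM in Elf4-KO and 3.96 FPKM in WT, an 8.21-fold rise. Inhba, the activin A subunit gene, had 10.5 FPKM in Elf4-KO and 2.61 FPKM in WT. Tgfb1 had 41.3 FPKM in Elf4-KO and 19.2 FPKM in WT, and Tgfb3 had 8.81 FPKM in Elf4-KO and 3.22 FPKM in WT (q = 0.00211 in the authors' deposited table). The 4 listed receptors of the family also rose. Tgfbr2, the receptor that binds TGF-beta first, had 94.1 FPKM in Elf4-KO and 46.8 FPKM in WT (q = 0.000694 in the authors' deposited table), and its partner Tgfbr1 had 62.5 FPKM in Elf4-KO and 21.9 FPKM in WT. Tgfbr3, the co-receptor betaglycan, rose 3.92-fold to 66.6 FPKM, and the BMP type II receptor gene Bmpr2 rose 2.80-fold to 28.2 FPKM in Elf4-KO.

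The BMP antagonist Grem1 (2:113746164-113758646, minus strand), made by fibroblasts beneath the crypts, had 523 FPKM in Elf4-KO and 186 FPKM in WT (q = 0.000694 in the authors' deposited table). Relative to the 6 listed BMP ligands, whose summed level was 126 FPKM in Elf4-KO and 63.9 FPKM in WT, Grem1 stood at 4.17 to 1 in Elf4-KO and 2.91 to 1 in WT. The summed ligands and Grem1 therefore both rose, and the ratio of Grem1 to that sum was 1.43 times as high in Elf4-KO. Within the sum Bmp8a and Bmp8b fell, and ligands outside the table, such as Bmp2 and Bmp3, are left out. The listed loci of Bmp4, Bmp5 and Bmp8b are wider than the annotated genes, so the ratio is uncertain. Bmper, a secreted BMP-binding protein, had 6.75 FPKM in Elf4-KO and 2.21 FPKM in WT. Smoc2 (17:14279506-14404790, plus strand), a matrix protein that in mouse also marks crypt stem cells, had 27.5 FPKM in Elf4-KO and 5.19 FPKM in WT, while Rnf43, likewise expressed at the crypt base, fell. Bmp1, a procollagen protease and not a BMP ligand, rose 3.22-fold to 27.7 FPKM, and Tgfbi, a TGF-beta-induced matrix protein, rose 2.24-fold to 184 FPKM in Elf4-KO.

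Of 33 further BMP and TGF-beta genes, 15 were listed, 14 higher and 1 lower. The secreted antagonist Nbl1 rose 3.60-fold to 131 FPKM and the follistatin-like gene Fstl1 rose 3.35-fold to 186 FPKM in Elf4-KO. The exception was Id1, a BMP target gene, with 47.2 FPKM in Elf4-KO and 193 FPKM in WT. Id2, named after its values were seen, went the other way, with 139.6 FPKM in Elf4-KO and 60.6 FPKM in WT.

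Of 5 listed EGF receptor family genes found by the symbol pattern, Ereg rose and the other 4, ligands and receptors alike, fell. Ereg (5:91051871-91093646, plus strand), the epiregulin gene, had 491 FPKM in Elf4-KO and 52.5 FPKM in WT, a 9.35-fold rise and the largest on the log2 scale among the 62 genes. Its neighbour Areg (5:91139599-91148432, plus strand), the amphiregulin gene, had 18.5 FPKM in Elf4-KO and 42.4 FPKM in WT (q = 0.000998 in the authors' deposited table). Hbegf had 6.14 FPKM in Elf4-KO and 15.2 FPKM in WT. Together these 3 ligands summed to 516 FPKM in Elf4-KO and 110.1 FPKM in WT. Ereg supplied 95.2% of that sum in Elf4-KO and 47.7% in WT, and Areg supplied 3.59% in Elf4-KO and 38.5% in WT. The sum therefore rose while 2 of its 3 parts fell. It leaves out the listed ligands Nrg1, Epgn and Tgfa, which the symbol pattern does not cover.

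The listed receptors fell. Erbb3 (10:128567523-128589652, minus strand), the neuregulin receptor, had 5.46 FPKM in Elf4-KO and 33.4 FPKM in WT, a 6.12-fold fall, and its partner Erbb2 had 4.55 FPKM in Elf4-KO and 16.2 FPKM in WT. Erbb2 shares its listed locus with Mien1, another listed gene, so its value is uncertain. Egfr and Erbb4 were not in the table. Of 15 further genes of the pathway, 8 were listed, 7 higher and 1 lower. Nrg1, a neuregulin ligand of Erbb3, had 111 FPKM in Elf4-KO and 20.2 FPKM in WT, opposite in direction to its receptor. The feedback inhibitor genes Spry1 and Spry4 rose 4.93-fold and 3.27-fold, to 28.4 and 13.8 FPKM in Elf4-KO. Tgfa, a further EGF receptor ligand, had 2.12 FPKM in Elf4-KO and 6.43 FPKM in WT. The ligand gene Epgn, named after its values were seen, had 4.52 FPKM in Elf4-KO and 1.54 FPKM in WT (q = 0.0128 in the authors' deposited table).

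FGF ligands rose and their epithelial carrier fell. Of 22 FGF ligand genes 3 were listed and 3 rose. Fgf7, the keratinocyte growth factor that fibroblasts make for epithelium, had 89.4 FPKM in Elf4-KO and 15.9 FPKM in WT, and Fgf2 had 30.8 FPKM in Elf4-KO and 7.46 FPKM in WT. The listed loci of Fgf7 and Fgf2 are wider than the annotated genes and take in 3 and 4 other protein-coding genes, so both values are uncertain. Fgf23, known as a phosphate-regulating hormone gene of bone, had 5.95 FPKM in Elf4-KO and 1.41 FPKM in WT.

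Among FGF receptors, Fgfr1 (8:25513654-25575718, plus strand), common in mesenchyme, had 78.2 FPKM in Elf4-KO and 14.3 FPKM in WT. Fgfr4 had 1.40 FPKM in Elf4-KO and 5.52 FPKM in WT (q = 0.000998 in the authors' deposited table). These receptors moved in opposite directions, and Fgfr2, the receptor of FGF7, was not in the table. Fgfrl1, which lacks a kinase domain, had 5.49 FPKM in Elf4-KO and 2.55 FPKM in WT (q = 0.0186 in the authors' deposited table). Fgfbp1 (5:43978858-43981779, minus strand), an epithelial carrier that frees FGFs from the matrix, had 2.68 FPKM in Elf4-KO and 71.3 FPKM in WT. Its 26.6-fold fall was the largest change among the 62 genes.

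HGF is secreted as an inactive precursor, cut to its active form by proteases that include Hgfac and the matriptase St14, and read by the receptor Met. Hgf (5:16553495-16620152, plus strand) had 88.5 FPKM in Elf4-KO and 23.5 FPKM in WT, a 3.77-fold rise. Hgfac (5:35041509-35048461, plus strand), its activator, had 5.32 FPKM in Elf4-KO and 74.8 FPKM in WT, a 14.1-fold fall. Per FPKM of Hgf there were 0.0601 FPKM of Hgfac in Elf4-KO and 3.18 FPKM in WT. St14 fell 9.09-fold to 10.9 FPKM in Elf4-KO. Spint1 and Spint2, which encode inhibitors of both proteases, fell 6.49-fold to 16.8 FPKM and 6.82-fold to 78.1 FPKM in Elf4-KO. Met, named after its values were seen, had 6.05 FPKM in Elf4-KO and 23.8 FPKM in WT. The ligand transcript thus stood at 14.6 to 1 over that of its receptor in Elf4-KO and at 0.988 to 1 in WT. Hgfac, St14, Spint1 and Spint2 all fell by amounts within the range of the epithelial markers, and Met by slightly less than its lower end.

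**Figure D4:**
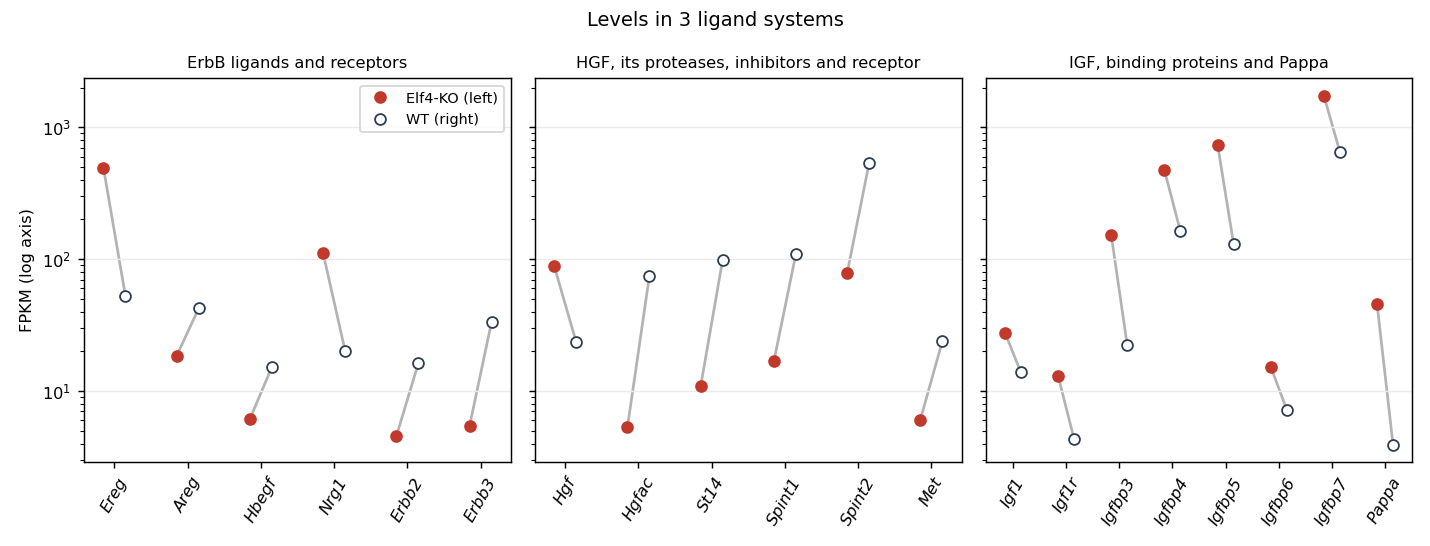
FPKM (log axis) in Elf4-KO (filled, left) and WT (open, right) of ErbB ligands and receptors, of HGF with its proteases, their inhibitors and its receptor, and of IGF with its binding proteins and the protease Pappa; 1 deposited value per genotype. Ereg and Nrg1 lie higher and Areg, Hbegf, Erbb2 and Erbb3 lower in Elf4-KO, Hgf lies higher while the other 5 genes of its panel lie lower, and every gene of the IGF panel lies higher.

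All 7 listed IGF genes rose. Igf1 had 27.7 FPKM in Elf4-KO and 13.8 FPKM in WT (q = 0.0148 in the authors' deposited table), and its receptor gene Igf1r had 13.0 FPKM in Elf4-KO and 4.32 FPKM in WT. Of the 7 genes Igfbp1 to Igfbp7, grouped here by symbol as IGF binding proteins, 5 were listed. Igfbp7 was the most abundant of the 62 genes, with 1729 FPKM in Elf4-KO and 651 FPKM in WT. Igfbp5 (1:72857932-72874884, minus strand) had 734 FPKM in Elf4-KO and 131 FPKM in WT, and Igfbp3 (11:7206086-7213923, minus strand) had 151 FPKM in Elf4-KO and 22.2 FPKM in WT. Igfbp4 had 472 FPKM in Elf4-KO and 163 FPKM in WT, and Igfbp6 had 15.3 FPKM in Elf4-KO and 7.24 FPKM in WT (q = 0.0160 in the authors' deposited table).

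The 5 binding proteins summed to 3102 FPKM in Elf4-KO and 974 FPKM in WT. They stood at 112 to 1 over Igf1 in Elf4-KO and at 70.4 to 1 in WT. The listed loci of Igfbp7 and Igf1 are wider than the annotated genes, so both ratios are uncertain. Igfbp7 supplied the largest part of each sum, so both ratios also depend on counting it as an IGF binding protein. Within the sum, Igfbp5 had a share of 23.7% in Elf4-KO and 13.4% in WT, while Igfbp7 had 55.7% in Elf4-KO and 66.8% in WT. Pappa, a protease that releases IGF from Igfbp4, had 45.3 FPKM in Elf4-KO and 3.91 FPKM in WT, an 11.6-fold rise.

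The PDGF and VEGF genes were split by ligand. Pdgfa, which epithelium supplies to fibroblasts, had 16.7 FPKM in Elf4-KO and 46.3 FPKM in WT, and Pdgfd had 9.35 FPKM in Elf4-KO and 3.31 FPKM in WT. Their receptors rose. Pdgfra, a fibroblast receptor, had 100.4 FPKM in Elf4-KO and 35.3 FPKM in WT, and Pdgfrb, a receptor of pericytes and fibroblasts, had 33.3 FPKM in Elf4-KO and 9.38 FPKM in WT. Pdgfa thus fell while the receptor it binds rose. Vegfd, a lymphatic growth factor and the only listed one of 4 VEGF genes, had 5.71 FPKM in Elf4-KO and 1.54 FPKM in WT (q = 0.000694 in the authors' deposited table).

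Of 17 further genes of the HGF, VEGF, PDGF, FGF and IGF systems, 15 were listed, 10 higher and 5 lower. Besides Pappa, the urokinase gene Plau rose 4.73-fold to 72.7 FPKM and the VEGF receptor gene Flt1 rose 5.25-fold to 25.1 FPKM in Elf4-KO. St14, Spint1 and Spint2 were the largest falls.

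All 4 Notch receptor genes were listed and rose, by 2.06-fold to 2.50-fold. Notch2 had 13.5 FPKM in Elf4-KO and 5.38 FPKM in WT, and Notch1 had 10.6 FPKM in Elf4-KO and 4.52 FPKM in WT. Notch4, an endothelial receptor, had 8.28 FPKM in Elf4-KO and 3.97 FPKM in WT (q = 0.0336 in the authors' deposited table). Notch3, a receptor of mural cells, had 5.42 FPKM in Elf4-KO and 2.63 FPKM in WT (q = 0.00359 in the authors' deposited table). Of 5 ligand genes 1 was listed, Dll1, with 17.99 FPKM in Elf4-KO and 7.82 FPKM in WT (q = 0.000998 in the authors' deposited table). Of 18 further Notch pathway genes, 3 were listed, 1 higher and 2 lower. Beside this stand 17.5% of all annotated protein-coding genes listed, and 48.0% of listed genes higher. Atoh1, the secretory fate factor that Notch restrains, had 0.740 FPKM in Elf4-KO and 10.3 FPKM in WT, a 13.9-fold fall. Dtx4, a Deltex ubiquitin ligase gene, had 15.1 FPKM in Elf4-KO and 4.88 FPKM in WT. The target genes Hes1, Hey1, Heyl and Nrarp were on this list and not in the table.

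The locus that the table gives extended more than 1000 bases past the annotated gene for 17 of the 62 genes. They were Bmp4, Bmp5, Bmp8b, Tgfb3, Ereg, Erbb2, Fgf2, Fgf7, Igf1, Igfbp7, Dll1, Notch1, Notch3, Pdgfa, Sfrp2, Rspo3 and Fzd5, and reads from neighbouring genes cannot be told apart in their values. Of the 62 loci, 10 overlapped another annotated protein-coding gene, among them Polr2b for Igfbp7, Ttll5 for Tgfb3 and Hmgcll1 for Bmp5. The Ereg locus begins before the annotated start at 91074622 and takes in no other protein-coding gene. Without these 17 genes, 35 genes rose and 10 fell.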

How the data were processed

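RNA from inflamed distal colon of 2 Elf4-KO and 2 WT samples was extracted with Trizol and sequenced after library preparation with a Vazyme mRNA kit, per the labels' protocols. The submitters' processing notes name Bowtie 0.12.2, Cufflinks 2.2.1 and build mm8 and give no role for any of them. The deposited table holds 1 FPKM value (fragments relative to transcript length and library size) per gene and genotype, per the file headers; the sources used here do not say how the authors combined samples. Each p-value and q-value comes from the authors' test, as deposited. Depth is unknown.

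The listed coordinates were compared with GENCODE M21 on GRCm38: all 62 member genes were found there by identifier, on the annotated chromosome. Coordinates are GRCm38, counted from 1. Folds were computed from FPKM, and log2 ratios of Elf4-KO over WT after adding 1 FPKM. With 1 value per genotype, no SD, interval or test could be computed. The member genes, their roles and the gene lists were chosen with earlier results of these data known. Every member gene may be named; of each list, up to 3 genes per direction with at least 1 FPKM in the higher genotype were named. Of the genes so chosen, 2 are not reported here. As alternatives, the limits were set to q of 0.01, to 4-fold, or to 1 or 5 FPKM, the pseudocount to 0.1, ratios were centred, and doubtful loci or the IGF binding proteins were left out. Counting was tested on simulated data. Python 3.11.15, numpy 2.4.6, pandas 2.3.3 and matplotlib 3.10.9 were used.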

Additional observations from a re-analysis of the deposited data

How the results depend on the processing

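No paired analysis was possible because both samples of a genotype share 1 deposited value. For the same reason no replicate could be left out, and how far 1 sample sets a value is unknown. With no spread to go by, a change of more than 1.5 times was counted as a move. A limit of 4-fold left 11 genes higher and 6 lower, by construction fewer than 47 and 15. It moved the median log2 ratio to 1.91 for ligands, 0.0809 for receptors and 2.48 for antagonists and binding proteins. The receptor value is the midpoint between 2 genes that rose and 2 that fell. Centring on the median of all listed genes gave 1.997, 1.91 and 2.14 for these 3 roles. A q of 0.01, minimums of 1 and 5 FPKM and leaving out doubtful loci kept the direction of these medians and moved neither them nor the 47 and 15 by over 1.5 times. The pseudocount of 0.1 did not move the medians by that much, nor did leaving out the 5 IGF binding proteins move that of the antagonists, whose count of higher genes went to 7 from 12 by construction. A pseudocount of 0.1 moved Bmp8a, Rnf43 and Dkkl1 of the 62 genes and reversed 0. Depth is unknown, so the counting error of genes with low FPKM, such as Bmp8a and Dkkl1, could not be given.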
